A study of Mus musculus with 10 samples.

Results

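Of the 5327 regions that the authors listed as differing in chromatin accessibility between control atria and atria with a homozygous Prrx1(R1A) allele, 801 lay far from any protein-coding gene. A region was taken when its bin, the 500 bp stretch whose reads stand for it in the deposited table, was more than 50 kb from every one of 21900 protein-coding gene bodies of the RefSeq annotation of GRCm38 (mm10). The rule used position only. In these intergenic regions 457 of 801 were higher and 344 were lower in the R1A-deleted animals, and 255 of them lay in 99 clusters.

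The series title places the work on a noncoding region that controls Prrx1, a homeobox gene, and on susceptibility to atrial arrhythmia. ATAC-seq, in which a transposase inserts sequencing adapters into accessible DNA, was run on nuclei of mice aged 8 to 12 weeks, with left and right atrium of 1 animal combined and nuclei sorted for PCM1, a centriolar satellite protein that surrounds cardiomyocyte nuclei. The 4 control animals (genotype given only as control, 6 libraries, since controls 1 and 3 had 2 each) were set against 4 Prrx1(R1A)-/- animals, called R1A-deleted here, with 1 library each. Sex, strain and the bounds of the deleted DNA are not given in the labels used here.

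Distal intergenic DNA that is open to a transposase often holds enhancers, short stretches that bind transcription factors and can act on promoters far away along the chromosome. Genes for developmental transcription factors are commonly surrounded by long stretches with no other gene and many such elements, and neighbouring elements can work together on 1 promoter. Such stretches also hold microRNA genes and long noncoding RNA (lncRNA) genes, whose own promoters are open when in use. Nearness to a gene does not show which promoter an element acts on, so genes are given below as positions only.

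Among the products encoded closest to the intergenic regions were several microRNAs, and 20 of the regions lay within 10 kb of a microRNA gene. The locus of Mir1a-1 and Mir133a-2 had 6 regions, all lower, but the source of mature sequences held no entry for these microRNAs. The mature sequences of 2 other loci are shown, each with several regions that moved the same way (miR-29 family and miR-3089). They are RefSeq sequences on GRCm38.p6, with the seed (bases 2 to 8, which pair with target messenger RNAs) in capitals. The Mir29a product came from chr6:31062673-31062694 and the Mir29b-1 product from chr6:31063025-31063047, both on the minus strand, and they share 1 seed. The Mir3089 products came from chr2:30721222-30721243 and chr2:30721259-30721281 on the plus strand, and their seeds differ from that of the miR-29 pair.
miR-29a-3p: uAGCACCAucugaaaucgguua
miR-29b-3p: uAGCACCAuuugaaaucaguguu
miR-3089-5p: uGAGUUCAgggacagcgugucu
miR-3089-3p: aGCAUCUGcugauccugagcugu

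Although no protein-coding gene was near, the bins of 15 regions overlapped the promoter window of a lncRNA gene, taken as 250 bases before to 50 after its annotated start. The overlap was from 17 to 300 bases. Of these 15 regions, 11 were higher and 4 lower, where 57.1% of all intergenic regions and 66.7% of all listed regions were higher. The windows of 4 of the 15 genes are shown, from RefSeq on GRCm38.p6: Gm29012 (chr1:105116203-105116502, plus strand), the one with the largest gain; Gm39160 (chr8:34472950-34473249, minus strand), which held a match to the AP-1 letters; Gm14064 (chr2:137663143-137663442, plus strand), a lower region with a match to the TEAD letters; and Gm26795 (chr8:28593280-28593579, plus strand), a lower region with no match. Capitals mark the matches.
Gm29012: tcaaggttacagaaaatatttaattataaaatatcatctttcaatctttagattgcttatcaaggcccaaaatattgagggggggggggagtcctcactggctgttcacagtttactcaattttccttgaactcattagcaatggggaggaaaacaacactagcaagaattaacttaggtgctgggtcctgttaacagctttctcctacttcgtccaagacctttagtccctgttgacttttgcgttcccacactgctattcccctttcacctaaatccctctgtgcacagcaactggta
Gm39160: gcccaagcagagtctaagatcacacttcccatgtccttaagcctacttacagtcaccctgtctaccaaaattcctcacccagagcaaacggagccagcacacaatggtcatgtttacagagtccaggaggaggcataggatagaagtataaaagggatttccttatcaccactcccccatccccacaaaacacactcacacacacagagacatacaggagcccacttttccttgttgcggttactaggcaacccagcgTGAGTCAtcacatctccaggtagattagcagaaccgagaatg
Gm14064: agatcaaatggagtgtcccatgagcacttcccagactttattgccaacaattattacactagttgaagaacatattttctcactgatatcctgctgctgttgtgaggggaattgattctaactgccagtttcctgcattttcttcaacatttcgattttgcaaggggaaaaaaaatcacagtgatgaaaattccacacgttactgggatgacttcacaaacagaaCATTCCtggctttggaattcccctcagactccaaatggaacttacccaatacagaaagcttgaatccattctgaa
Gm26795: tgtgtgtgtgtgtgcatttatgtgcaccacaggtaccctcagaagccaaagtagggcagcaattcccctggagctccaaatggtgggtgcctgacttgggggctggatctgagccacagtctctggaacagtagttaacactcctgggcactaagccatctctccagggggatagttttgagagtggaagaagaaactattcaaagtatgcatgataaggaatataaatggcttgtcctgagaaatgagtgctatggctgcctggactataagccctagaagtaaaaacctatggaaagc

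Both strands of the windows were searched for 4 sets of letters, and overlapping matches of different sets were allowed. The 15 genes have 17 distinct windows, because 2 genes have 2 starts. The GATA letters AGATAA were in 0 of 17 windows and in 11.2% of 32817 windows of all genes. For TEAD (GGAATG, read as CATTCC on the other strand) the counts were 3 of 17 windows and 14.7% of all windows. Among these 3, the 2 windows of Gm14064 overlap and hold the same match, and the other window is that of Gm39782. Only 17 bases of the Gm39782 window lay in its bin, and its TEAD and AP-1 matches were outside them. The AP-1 letters TGANTCA were in 3 of 17 and in 7.81% of all, and the glucocorticoid receptor letters ACANNNTGT in 1 of 17 and in 6.85% of all. A match describes the letters of the window and shows no binding.

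Every value below is a number of scaled reads, meaning the reads in the 500 bp bin of a region divided by a factor for that animal. The factor takes the difference in scale between the groups from the authors' deposited fold changes, and within a group from median ratios. Reads in all listed bins ranged from 151976 in control 2 to 736607 in control 3, and a bin of an intergenic region held a median of 448 reads over the 8 animals together (184 to 4808). The authors' own calls on these libraries made the list of regions, so each p-value here describes a region that was already selected and is no independent evidence. In nuclei taken in bulk, fewer nuclei with an open site and a less open site in every nucleus cannot be told apart.

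By edgeR's quasi-likelihood test with Benjamini-Hochberg adjustment over all 5327 listed regions, 57.1% of the intergenic regions were called higher, against 66.7% of all listed regions, and 42.9% were called lower, against 33.3%. On the authors' scale 3551 of all listed regions were called higher and the other 1776 lower, so no region went uncalled. These shares restate the directions in the authors' list. The median deposited log2 change, in the authors' deposited table, was 0.84 for the higher and -0.84 for the lower intergenic regions. Over all listed regions the same medians were 0.81 and -0.80. The higher regions had a median of 34.0 scaled reads in the controls and 76.9 in the R1A-deleted animals. For the lower regions these medians were 62.8 and 29.0.

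The split between directions rests on the scale. With TMM factors, which assume that most regions do not change, the log2 changes of all regions shifted down by 0.60, and 162 intergenic regions were called higher (20.2%, against 18.5% of all listed regions) and 344 lower. The higher ones were then 32.0% of the calls, against 57.1% on the authors' scale and 49.1% when animals were scaled to total reads in listed bins. With TMM, 16 of the 457 higher regions had a log2 change below 0, and 0 of the 344 lower regions had one above 0. Since the shift is downward, lower regions could not lose their call, and calls with TMM factors are given below for higher regions only.

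The levels were also taken as shares of the listed reads of each animal, which is the scaling to total reads in listed bins. Reads in intergenic bins made up 13.9% to 15.3% of all listed reads in the 4 controls and 12.6% to 13.7% in the 4 R1A-deleted animals. The higher intergenic regions took 7.03% to 7.28% of listed reads in controls and 10.2% to 10.7% in R1A-deleted animals. The lower ones took 6.65% to 8.27% in controls and 2.41% to 2.97% in R1A-deleted animals. None of these last ranges overlapped, which follows in part from the choice of listed regions.

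Region by region, all 4 R1A-deleted animals lay above all 4 controls in 419 of the higher regions, which is 52.3% of the intergenic regions, against 60.4% of all listed regions. All 4 lay below in 304 of the lower ones, or 38.0%, against 29.6%. These shares follow the split between directions. Within the higher regions the share without overlap was 91.7%, against 90.6% of all higher listed regions. Within the lower regions it was 88.4%, against 88.8%. In the lower regions control 1 was most often the control nearest the R1A-deleted animals, in 171 of 344 (49.7%), and control 3 least often, in 40. In the higher regions the nearest control was spread more evenly over the animals, from 22.3% for control 4 to 29.3% for control 1. Across intergenic regions the median coefficient of variation was 22.1% among controls and 20% among R1A-deleted animals.

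The share of higher regions was lowest in the distance class farthest from genes. Of the 289 regions at 50 to 100 kb from a gene, 60.2% were higher, and of the 262 at 100 to 200 kb, 61.5% were. At 200 to 500 kb the share was 54.8% of 186, and beyond 500 kb it was 31.3%, with 20 of 64 regions higher and 44 lower. These 64 lay in 44 separate gaps between genes on 17 chromosomes. With TMM factors 0 of the 20 higher ones were called higher, against 39 of the 102 higher ones at 200 to 500 kb. These 20 were also weaker on the authors' scale. The groups did not overlap in 13 of the 20, against 94 of the 102. The median deposited log2 change was 0.74 for the 20 and 0.86 for the 102. For comparison, 66.8% of the 3243 listed regions inside a gene and 72.3% of the 1283 within 50 kb were higher. Regions are not replicates, and no test was made of this trend.

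**Figure D1:**
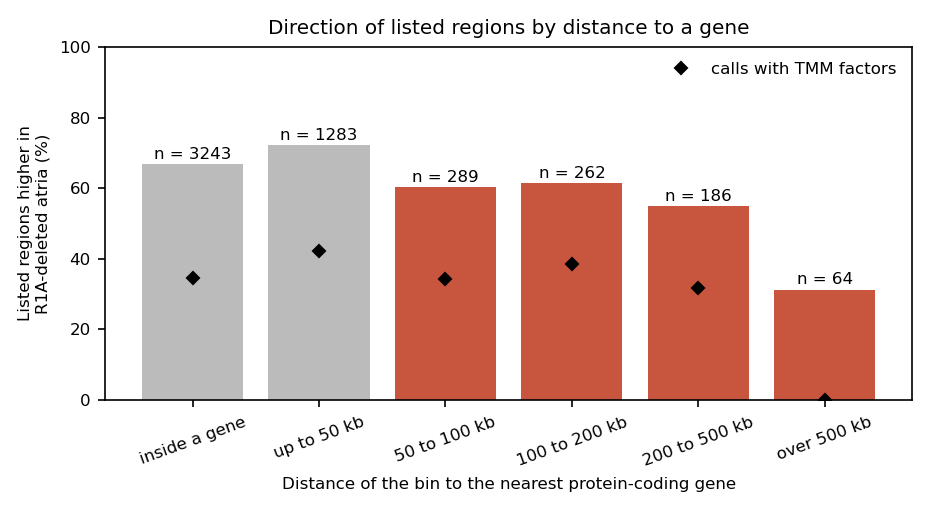
Percent of listed regions higher in R1A-deleted atria (bars, authors' scale; number of regions above each bar) by distance of the bin from the nearest protein-coding gene, with the percent among calls made with TMM factors as diamonds; red bars are the intergenic regions. The bars fall from 60.2% at 50 to 100 kb to 31.3% beyond 500 kb, and the diamond there is at 0.

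The split was also set against the size of the gap. In gaps between protein-coding genes of up to 500 kb, 237 regions were higher and 142 lower, and in gaps over 2 Mb, 27 were higher and 50 lower. Of the 200 regions that were over 50 kb from any RefSeq gene, noncoding ones included, 95 were higher and 105 lower. The 200 intergenic regions inside a lncRNA gene body, 25% of the set against 12.9% of all listed regions, had 126 higher and 74 lower. On the X, 5 intergenic regions were higher and 15 lower, where all listed regions on it had 30 and 40. All 6 intergenic regions on the Y were higher, as were all 12 listed there.

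Width set the intergenic regions little apart: the median was 750 bp, as over all listed regions, and the range was 500 to 9000 bp. The farthest region was 1799.9 kb from any protein-coding gene, on chromosome 14 between Olfm4 and Pcdh17 (chr14:81822751-81823500). Its values were 83.9, 84.7, 59.7 and 47.8 scaled reads in controls 1 to 4 and 148.9, 131.2, 108.8 and 143.3 in R1A-deleted animals 1 to 4. The groups did not overlap, and the log2 change was 0.96 ± 0.19 (SE), but it was not called with TMM factors, at 0.36. The next farthest, both lower, were between Slitrk5 and Gpc5 (1702.4 kb, log2 change -1.26 ± 0.38) and between Zeb2 and Acvr2a (1684.4 kb, -1.04 ± 0.27). All 5 intergenic regions between Zeb2, a repressor of epithelial genes, and the activin receptor gene Acvr2a were lower.

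Regions in the same direction lay together. Successive intergenic regions up to 5 kb apart had the same direction in 64 of 65 pairs (98.5%). At 5 to 20 kb it was 40 of 44 pairs, at 20 to 50 kb 39 of 47, and at 50 to 100 kb 28 of 48 (58.3%). Beyond 1 Mb it was 205 of 397 (51.6%). All listed regions gave 98.6% up to 5 kb, 68.9% at 50 to 100 kb and 55.4% beyond 1 Mb.

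**Figure D2:**
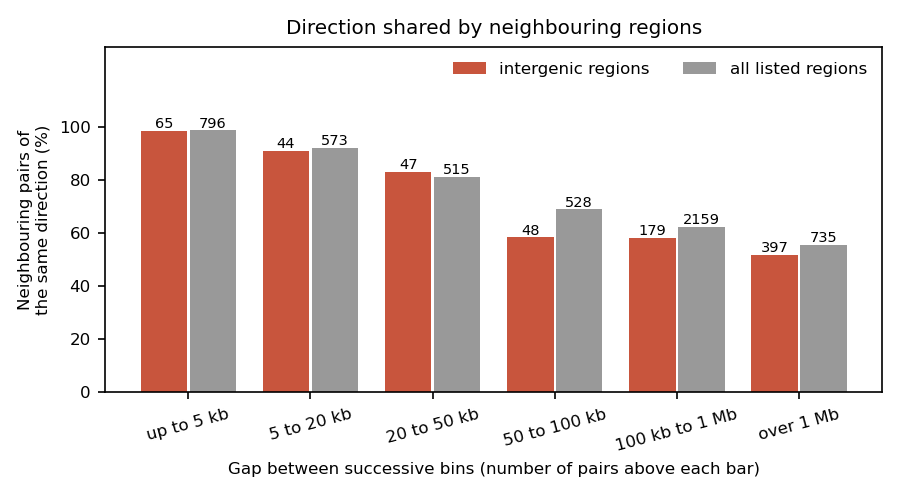
Percent of successive listed regions with the same direction (y axis) by the gap between their bins (x axis), for intergenic regions (red) and all listed regions (grey), with the number of pairs above each bar. Among intergenic regions the percent falls from 98.5% up to 5 kb to 58.3% at 50 to 100 kb.

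Regions with successive gaps of 50 kb or less were joined into clusters. The 99 clusters held 255 regions (31.8%), and 546 regions stood alone. Of the clusters, 52 held only higher regions, 35 only lower and 12 both, and 75 were pairs. The 24 clusters of 3 or more regions included 3 of mixed direction. The 8 clusters with most members are described next, with the reads of their bins summed in each animal. A further cluster of 5, between Pfn2 and Tsc22d2, with 4 higher and 1 lower, tied for the last place and spanned more (104.2 kb). The lead region of a cluster or gene is the one with the smallest adjusted p in the authors' deposited table, which need not be the one with the largest change.

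The cluster with most members lay on chromosome 14 between Serp2, a small protein of the endoplasmic reticulum membrane, and Lacc1, an enzyme of macrophages (chr14:76728251-76822250). It held 8 higher regions and 1 lower one, 4 of the 9 inside the lncRNA genes 4930431P22Rik and Gm30246. Summed reads were 514, 588, 443 and 525 in controls 1 to 4 and 751, 798, 791 and 867 in R1A-deleted animals 1 to 4, or 518 ± 59.3 and 802 ± 48.1 (SD, n = 4 each). Every R1A-deleted sum was above every control sum. The lower region stood at the Lacc1 end of the cluster, at chr14:76821751-76822250, and fell from 82.8 ± 9.99 to 50.9 ± 5.02 scaled reads. It lay inside Gm30246, as the higher regions next to it did. With TMM factors 2 of the 9 regions were called, a count that includes the lower region, which could not lose its call.

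Between Cebpb and Ptpn1 all 8 regions were higher (chr2:167754501-167853250). Cebpb encodes a transcription factor induced by inflammation and glucocorticoids, and Ptpn1 a phosphatase that dampens insulin receptor signalling. Summed reads were 476, 414, 518 and 589 in the controls and 1013, 1019, 922 and 967 in the R1A-deleted animals. The groups stood far apart, with means of 499 ± 73.5 and 980.1 ± 45.1 (SD, n = 4 each), and no single region of the 8 had overlapping groups. The log2 changes of the 8 regions ranged from 0.83 to 1.13. With TMM factors 1 of them was called.

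The chromosome 2 cluster between Cstad and 1700001O22Rik (chr2:30667501-30723750) contained Mir3089. Its 7 regions were 6 higher and 1 lower, and the 5 nearest Mir3089 were all higher. Sums in the controls were 605, 569, 539 and 579, and in the R1A-deleted animals 944, 913, 1040.0 and 953. The lead region of the 7, at chr2:30715751-30719000 and 2.2 kb from the microRNA gene, had 78.1, 77.6, 98.4 and 91.9 scaled reads among controls and 209.4, 263.4, 245.9 and 243.3 in R1A-deleted animals. Its groups were widely separate, with a log2 change of 1.46 ± 0.15 (edgeR's quasi-likelihood test, adjusted p = 2.13e-08). It remained called with TMM factors at a log2 change of 0.86.

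A run of 6 higher regions on chromosome 6 lay inside the adjoining lncRNA genes Lncpint, induced by p53, and 2210408F21Rik (chr6:31148251-31264250), between the transcription factor gene Klf14 and Mkln1. Sums were 180.0, 181, 188 and 219 in the controls and 414, 296, 370 and 398 in the R1A-deleted animals. The same gap held 3 more regions next to Mir29a, so 9 of its 9 regions were higher. None of the 6 was called with TMM factors. The run of 6 higher regions near the end of the Y chromosome (chrY:90797751-90827750), above the gene Gm52481, had sums of 316, 379, 313 and 289 against 712, 596, 530 and 600.0. None of these 6 was called with TMM factors either.

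In 3 of the 8 clusters every region was lower. The cluster between Gata5 and Slco4a1 (chr2:180388751-180407750) had 6 regions, all lower, 5 of them inside the primary transcript gene Mir1a-1hg that gives the muscle microRNAs Mir1a-1 and Mir133a-2. Sums were 1225, 715, 969 and 625 in the controls and 505, 343, 314 and 358 in the R1A-deleted animals. The groups did not overlap, though the controls ranged widely (884 ± 269.9 against 380.0 ± 85.1, SD, n = 4 each), and in 3 of the 6 regions single animals did overlap. The 6 log2 changes lay between -1.86 and -0.87.

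Between Myocd, a coactivator of serum response factor in heart and smooth muscle, and the stress kinase gene Map2k4, 6 regions were lower (chr11:65333251-65366000). They lay 63.3 kb or more from Myocd and 322.5 kb or more from Map2k4. Sums were 312, 381, 406 and 276 in the controls and 155, 137, 155 and 150.0 in the R1A-deleted animals. The R1A-deleted sums were close together (149 ± 8.46, against 344 ± 60.4 in controls). The region at chr11:65334001-65339750 fell most, from 49.6, 40, 91.4 and 46.6 scaled reads to 14.0, 21.9, 18 and 6.67, a log2 change of -1.91 ± 0.30.

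The last of the 8 clusters, shorter than the other cluster of 5 (39.2 kb), lay on chromosome 12 between Gm4120 and Taf1b, which encodes a subunit of an RNA polymerase I initiation factor (chr12:24377001-24416250). All 5 regions were lower and none had overlapping groups. Sums were 250.2, 296, 319 and 355 in the controls and 123, 166, 144 and 128 in the R1A-deleted animals. The lncRNA gene nearest to the lead region of the 5 was 263.8 kb away.

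**Figure D3:**
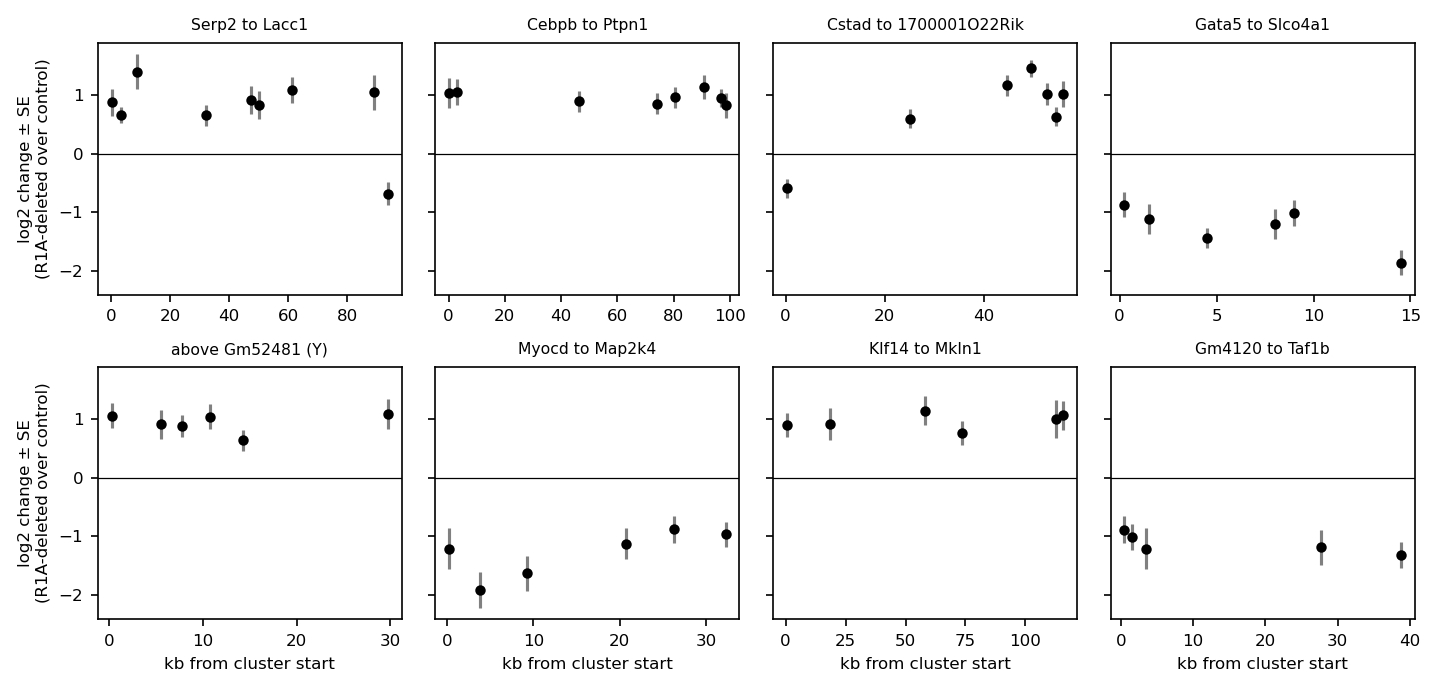
Log2 change ± SE (R1A-deleted over control, authors' scale; 4 animals a group) of each region in the 8 clusters with most members, by distance in kb from the cluster's start. Only the clusters Serp2 to Lacc1 and Cstad to 1700001O22Rik hold regions on both sides of 0, with 1 lower region each.

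**Figure D4:**
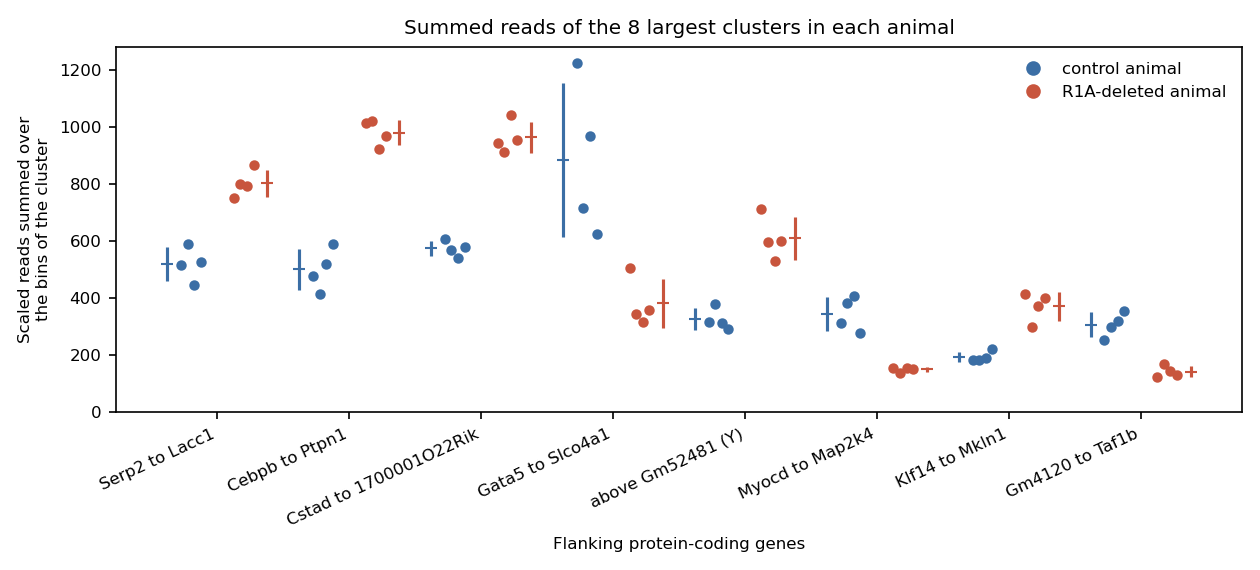
Scaled reads summed over the bins of each of the 8 clusters in every animal (points), with the group mean ± SD beside them (n = 4 each). In all 8 clusters the control and R1A-deleted points do not overlap; the controls of Gata5 to Slco4a1 spread from 625 to 1225.

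Single regions with large changes were taken as the 8 largest gains and 8 largest losses by deposited log2 change, among the 344 intergenic regions whose mean scaled reads reached 55.4, the median of all listed regions, with at most 1 a cluster. The largest gain was on chromosome 5 between Sdk1, a cell adhesion protein of synapses, and Foxk1, a forkhead transcription factor (chr5:142313251-142314500). Scaled reads were 31.1, 16.5, 21.9 and 23.9 in the controls and 174.3, 148.1, 84.2 and 120.0 in the R1A-deleted animals. The lowest R1A-deleted animal was above every control, and the log2 change was 2.42 ± 0.23 (edgeR's quasi-likelihood test, adjusted p = 9.93e-09).

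Near Ets1, a transcription factor of lymphoid and endothelial cells, a region 77.4 kb away (chr9:32834501-32836250) went from 67.0, 51.8, 57.3 and 70.5 scaled reads to 187.5, 310.1, 280.9 and 203.3. The groups were apart, at a log2 change of 1.98 ± 0.18. A region midway between Ccdc71l and Nampt, the rate-limiting enzyme of NAD salvage (chr12:32605001-32606500), had 25.9, 37.6, 47.1 and 28.9 scaled reads among controls and 136.7, 159.0, 127.7 and 151.7 in R1A-deleted animals. Here too the groups were apart, with a log2 change of 2.02 ± 0.20. The region 136.9 kb from Id2, an inhibitor of basic helix-loop-helix factors, reached the highest level of the gains described (chr12:25231501-25233750). It had 94.0, 63.5, 92.8 and 91.9 scaled reads among controls and 212.0, 315.1, 351.9 and 333.3 in R1A-deleted animals, at a log2 change of 1.78 ± 0.16.

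A region 194.2 kb from Prox1, a homeobox factor of lymphatic and heart muscle development (chr1:190364501-190366000), had 56.5, 44.7, 45.2 and 41.5 scaled reads among controls and 166.4, 148.1, 201.5 and 123.3 in R1A-deleted animals. Its groups were apart and its log2 change was 1.75 ± 0.18. Another gain lay between the lipid kinase gene Pip4k2a and Armc3 (log2 change 1.82 ± 0.23), and another 94.6 kb from the sphingosine-1-phosphate receptor gene S1pr3 (1.81 ± 0.20). None of these 7 gains had overlapping groups, and all 7 were called higher with TMM factors.

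The largest loss was the region next to Mir133a-2 at the Slco4a1 end of the Gata5 cluster (chr2:180398751-180407750), at 9000 bp the widest intergenic region. Scaled reads in its bin were 123.0, 122.3, 117.9 and 88.1 in the controls and 38.5, 18.9, 31.2 and 36.7 in the R1A-deleted animals. The highest R1A-deleted animal was less than the lowest control, and the log2 change was -1.86 ± 0.22 (edgeR's quasi-likelihood test, adjusted p = 1.5e-07). A region between Anxa10, an annexin, and Spock3, a secreted proteoglycan (chr8:62284251-62285250), had 78.7, 117.6, 78.3 and 80.5 scaled reads among controls and 20.2, 28.8, 35.9 and 15 in R1A-deleted animals. Its groups were apart, at -1.74 ± 0.24.

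On the same chromosome a region 71.9 kb from Tcim (chr8:24364501-24365500) had 118.8, 162.3, 119.8 and 68.0 scaled reads among controls and 37.7, 36.8, 41.6 and 40 in R1A-deleted animals. The R1A-deleted values were close together and below every control, at a log2 change of -1.56 ± 0.22. The region 225.8 kb from Osr1, a zinc finger factor expressed in the developing atrial septum (chr12:9807001-9808000), had 146.8, 181.2, 187.4 and 149.8 scaled reads among controls against 35.0, 52.7, 66.2 and 85.0. It too had no overlap, at -1.52 ± 0.20. The remaining losses among the 8 lay near Barx2, a homeobox factor (-1.69 ± 0.25), Gfra2, a co-receptor for neurturin (-1.52 ± 0.23), the latrophilin gene Adgrl2 (-1.42 ± 0.21) and Ripk2, a kinase of NOD receptor signalling (-1.30 ± 0.21). All 8 losses had separate groups.

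**Figure D5:**
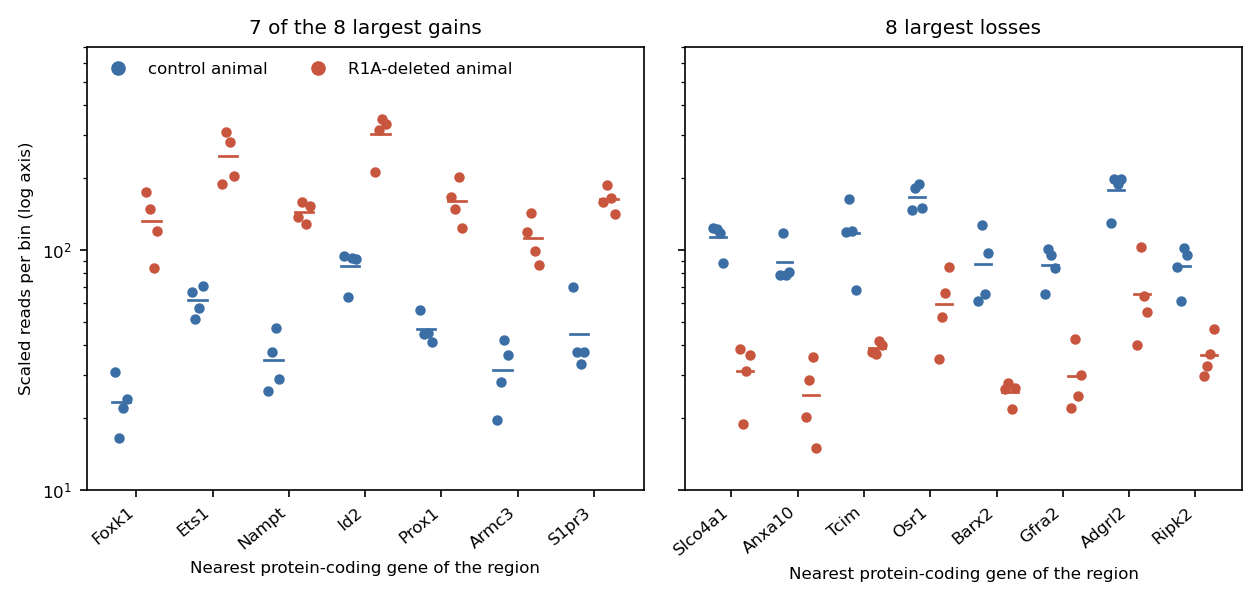
Scaled reads per bin (log axis) in each control (blue) and R1A-deleted animal (red) for 7 of the 8 largest gains and the 8 largest losses, with short lines for group means, labelled by the nearest protein-coding gene. In all 15 regions the 2 groups do not overlap.

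The 20 regions within 10 kb of a microRNA gene included 6 at Mir1a-1 and Mir133a-2, all lower, 5 at Mir3089 and 3 at Mir29a, all higher. The 3 regions beside Mir29a, which with Mir29b-1 carries the shared seed AGCACCA shown above, lay 0.4 to 4.4 kb from it. The one at chr6:31059251-31059750 had 16.9, 11.8, 17.3 and 31.5 scaled reads among controls and 49.9, 41.7, 42.6 and 48.3 in R1A-deleted animals. Its groups did not overlap, at a log2 change of 1.23 ± 0.29, and none of the 3 was called with TMM factors. MiR-29 family members are known to repress collagen messages in heart fibroblasts.

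Single regions lay within 10 kb of the other microRNA genes, measured from the merged region and not from its bin. The region at Mir30d (chr15:68341501-68342000) fell from 36.4, 56.5, 35.0 and 47.8 scaled reads in controls to 8.76, 25.8, 16.1 and 28.3 in R1A-deleted animals, with no overlap, at -1.15 ± 0.33. The region that contains Mir5118 (chr16:55494751-55495750) fell from 46.5 ± 7.63 to 17.8 ± 6.38 scaled reads. Its bin, at chr16:55495001-55495500, does not include the mature Mir5118 sequence. A region 9.2 kb from Mir421, in the lncRNA gene Ftx of the X inactivation centre, fell from 96.6 ± 22.0 to 57.5 ± 13.6. In the other direction, the region 4.6 kb from Mir3970 rose from 5.28, 4.71, 12.1 and 11.3 to 41.2, 55.7, 40.7 and 41.7 scaled reads, and regions near Mir3072 and Mir344d-2 had log2 changes of 1.22 ± 0.25 and 0.93 ± 0.25. The groups overlapped at Mir344d-2, which was not called with TMM factors.

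At the lncRNA promoters shown above, the bin over the Gm29012 window had 15.3, 28.2, 20.1 and 18.9 scaled reads among controls and 56.1, 63.6, 70.9 and 58.3 in R1A-deleted animals. All R1A-deleted animals were higher, at a log2 change of 1.69 ± 0.24. The Gm39160 bin had 21.9 ± 3.03 scaled reads among controls and 40.7 ± 8.86 in R1A-deleted animals, and was not called with TMM factors. The Gm26795 bin went the other way, from 122.5, 169.4, 177.6 and 164.9 to 42.1, 61.6, 79.5 and 103.3, with no overlap, at -1.18 ± 0.20. At Gm14064, which is 546.5 kb from Jag1, a Notch ligand gene, the values fell from 26.9, 21.2, 44.3 and 18.9 to 6.13, 18.9, 10.4 and 10. There the lowest control and the highest R1A-deleted animal were both at 18.9, and the log2 change was -1.37 ± 0.40.

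Other bins over lncRNA promoters had higher counts. The bin over Gm28644 had a control mean of 304.5 ± 12.4 scaled reads and an R1A-deleted mean of 432.6 ± 63.4. Over 4632428C04Rik, 56.4 kb from the Notch target gene Hes1, the means were 228.8 ± 21.4 and 354.3 ± 39.8. The bin over 1700064M15Rik went from 117.9 ± 17.7 to 254.2 ± 66.7. All 3 were higher in every R1A-deleted animal than in any control on the authors' scale. With TMM factors only 1700064M15Rik of the 3 was called, and Gm28644 had a log2 change of -0.09. In the other direction, the bin over Gm40646 went from 214.9 ± 37.2 to 119.9 ± 9.59, a log2 change of -0.82 ± 0.15.

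The genes on either side of each region were compared with lists of heart genes, which share some members. Beside each count stands the same over the regions whose nearest gene is on the list, for the intergenic regions and for all listed regions. Of 45 cardiac transcription factors, 17 flanked 38 intergenic regions, 12 of them higher and 26 lower. By nearest gene alone it was 7 higher and 16 lower, where all listed regions had 37 higher and 29 lower. Gata5 and Myocd had 6 lower regions each, and Etv1, a factor of fast-conducting atrial myocardium, had 3, all lower. Tbx20, a T-box factor of the adult heart, had 3 lower and 1 higher, and Tbx3, a T-box factor of the conduction system, had 3, all higher. The lead region flanking Tbx20 (chr9:24956001-24957250, 181.9 kb away) lay nearer to Herpud2 (151.4 kb). It had 119.8, 157.6, 152.4 and 134.7 scaled reads among controls and 55.2, 62.6, 69.1 and 58.3 in R1A-deleted animals. Its groups were far apart, at -1.19 ± 0.17. The lead region at Etv1, 320.0 kb away, had a log2 change of -1.13 ± 0.20. Prox1, Hand2 and Tbx5 each had 1 higher region, and Mef2a, Mef2c and Meis1 each had 1 lower.

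Ion channel genes flanked 14 regions, 5 higher and 9 lower (nearest gene: 5 and 5, of 29 and 38 listed). The region between Kcna5, the potassium channel of the atrial ultrarapid current, and Kcna1 (chr6:126585501-126586500) had 59.1, 35.3, 38.2 and 49.1 scaled reads among controls and 113.0, 106.3, 97.4 and 118.3 in R1A-deleted animals. It did not overlap, at 1.22 ± 0.19. Gja1, which encodes connexin 43, flanked 2 higher and 3 lower regions. Lower regions flanked Kcnd2 (lead region 167.1 kb away, -0.87 ± 0.16), the inward rectifier Kcnj2 (382.9 kb, -1.11 ± 0.24) and the calcium-activated channel Kcnn2 (260.4 kb, -1.24 ± 0.30). Those flanking Kcnj2 and Kcnn2 lay nearer to other genes, Gm11677 and Trim36. Few regions flanked calcium handling genes (2 higher, 2 lower) or sarcomere genes (1 and 1, both by Nebl). By nearest gene the calcium handling genes had 1 higher and 1 lower, of 31 and 82 listed. The sarcomere genes had 0, of 79 higher and 59 lower listed. Both Ryr2 regions were lower, and the lead one was 565.1 kb away. The region 111.1 kb from Jph1, which anchors the junctional membrane, had a log2 change of 1.02 ± 0.32. The region flanking the sodium-calcium exchanger gene Slc8a1, 943.1 kb away and nearer to Pkdcc (533.3 kb), had 0.89 ± 0.19. Neither was called with TMM factors. Genes at loci linked to atrial fibrillation, 41 in all, flanked 5 higher and 5 lower regions (nearest gene: 4 and 1, of 97 and 27 listed). The atrial identity genes flanked 3 regions, all higher, 2 by Kcna5 and 1 by the T-box factor gene Tbx5. By nearest gene it was 2 higher and 0 lower, since the Tbx5 region lay nearer to Rbm19. Over all listed regions nearest to these genes it was 10 higher and 64 lower.

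Glucocorticoid response and clock genes flanked 14 higher and 3 lower regions, and 8 of the 14 were the Cebpb cluster. By nearest gene it was 6 and 2, of 51 higher and 2 lower listed. Of the rest, 3 of the 4 at Sgk1, a kinase induced by glucocorticoids, and both at the clock factor gene Npas2 were higher. The lead region at Sgk1 (chr10:21685751-21686750) had 62.8, 44.7, 57.8 and 64.2 scaled reads among controls and 111.3, 166.0, 156.1 and 111.7 in R1A-deleted animals, without overlap, at 1.22 ± 0.18. The region 83.7 kb from Klf9, a glucocorticoid-induced factor, had 89.7 ± 15.5 in controls and 189 ± 16.1 in R1A-deleted animals. The region between Pdcl3 and Npas2 had a log2 change of 1.05 ± 0.16. Of these 3 regions all were called higher with TMM factors.

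Stress and immediate early genes flanked 11 higher and 6 lower regions. By nearest gene it was 8 and 3, where all listed regions had 17 higher and 23 lower. Past Myc, 4 regions were higher and 1 lower, and the lead region (chr15:62294501-62296000, 304.4 kb away, beyond the lncRNA gene Pvt1) had 27.5, 23.5, 28.4 and 10.1 scaled reads among controls and 85.9, 84.5, 84.2 and 85.0 in R1A-deleted animals. The R1A-deleted animals were nearly equal, and the log2 change was 1.84 ± 0.24. Both regions at Jun were higher, and the 1 region at Ccn2, a matricellular target of YAP and TGF-beta, was lower (-1.28 ± 0.24). Klf6 flanked 3 higher and 4 lower.

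TGF-beta, BMP and Wnt genes flanked 11 higher and 7 lower. By nearest gene it was 3 higher and 7 lower, and all listed regions had 14 and 20. Id2 had 4 higher and 1 lower. Inhba, the activin A subunit gene, had 2 higher, and Gdf6, a BMP family ligand, had 2 lower, of which the lead region had 72.9, 58.8, 93.7 and 88.1 scaled reads among controls and 15.8, 29.8, 26.5 and 25 in R1A-deleted animals. These did not overlap, at -1.73 ± 0.24. Bmp2 flanked 2 lower regions and 1 higher at 1.39 ± 0.26, which was 657.4 kb away and nearer to Hao1. The 1 region flanking a fuel metabolism gene, 243.5 kb from Ppargc1a and also nearest to it, was lower (-0.94 ± 0.26). All listed regions nearest to such genes were 54 higher and 9 lower. Among lists with 10 or more flanked regions, against 57.1% higher of all intergenic regions, the counts of higher regions ranged from 12 of 38 for cardiac transcription factors to 14 of 17 for glucocorticoid and clock genes, and no list was tested.

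Markers of cells that a PCM1 sort should leave out flanked few intergenic regions. No region flanked any of 12 fibroblast, 11 smooth muscle and pericyte, 8 epicardial or 8 adipocyte markers. The endothelial genes Cdh5 and Kdr had 1 lower region each, at -0.82 ± 0.23 and -0.96 ± 0.22. The immune marker Runx1 and the neural marker Ncam1 had 1 higher region each, at 0.67 ± 0.18 and 1.20 ± 0.35, neither called with TMM factors. Over the whole list of 5327, the nearest gene was a sarcomere gene at 138 regions, a calcium handling gene at 113, an endothelial marker at 10 and a fibroblast marker at 2. The part of other cell types in the changes was not tested.

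The direction of each intergenic region was set beside that of the listed regions at its closest gene. Of the 457 higher intergenic regions, 178 had a nearest gene with listed regions of its own, inside it or within 50 kb, and at 134 of these (75.3%) those regions were all higher. Of the 344 lower ones, 97 had such a gene, and at 54 (55.7%) its regions were all lower. Over all 2762 genes with a listed region, each counted once, the shares were 66.6% all higher and 27.1% all lower. The shares at intergenic regions count a gene again for each such region nearest to it, so the units differ. Leaving out the 60 intergenic regions within 50 kb of a listed region outside the intergenic set gave 105 of 145 (72.4%) and 42 of 80 (52.5%). Genes are not replicates, and no test was made of these shares.

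No intergenic region lay within 1000 kb of Prrx1, so these regions hold no check of the allele itself. At the edge of the rule, the 2 regions just inside were 50.2 kb from Kcna5 and from Luc7l, with deposited log2 changes of 1.00 and 0.96 in the authors' deposited table. Just outside were a region 49998 bp from Gata5, at the end of the Mir1a-1 cluster with a deposited log2 change of -0.46, and one 49955 bp from Slco5a1 with -0.80. Among the regions with the most reads, the highest control level was between Fam98a and Crim1 (chr17:76673251-76674000), at 466 ± 103 scaled reads against 676 ± 66.7 in R1A-deleted animals. Its groups overlapped, and its log2 change of 0.55 ± 0.13 was -0.04 with TMM factors. The next highest controls were lower regions, between Gm10573 and 9530002B09Rik (350.0 ± 129.5 to 123 ± 11.0) and 90.2 kb from N6amt1 (339 ± 52.6 to 216 ± 28.8).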

How the data were processed

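Nuclei from 8 animals gave 10 ATAC-seq libraries. The submitters' processing notes name BWA, bedtools, DESeq2 and the build mm10, without versions or roles. Filters on bins, the handling of duplicates and of the transposase offset, and the authors' test design were not stated in the sources used here. Per the file headers, the authors' deposited table gives for each merged region the read counts of 1 bin, a log2 fold change, an adjusted p-value and a group signal (the geometric mean of raw counts). The deposited counts are whole except for 17 cells of 0.1 and were handled as estimated counts, with 0.1 rounded to 0. The authors' log2 fold change divides control by R1A-deleted, and it is given here with the opposite sign. The table holds only regions that the authors called, so reads in listed bins are not the sequencing depth. Every column of sample values was used.

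Repeat libraries of controls 1 and 3 were summed per animal. A chi-square over its degrees of freedom was 1.83 and 1.7 for these repeats, and 2.17 to 3.18 for libraries of different animals, so the repeats were not identical. The scale between groups came from a line through the deposited log2 fold change and the log2 ratio of deposited group means over the 1432 regions where neither mean was under 50 (slope 0.874, difference 0.142 log2). edgeR 4.0.16 (R 4.3.3) quasi-likelihood tests ran on all 5327 regions with Benjamini-Hochberg adjustment and a threshold of 0.05, and were tested on simulated data first. A standard error is the log2 change divided by the square root of the test's F value. DESeq2 1.42.0 served as an alternative, beside TMM factors, total reads, a filter on low counts, other treatment of repeat libraries, a replicate block and each animal left out.

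Regions named in the text are the 8 largest gains and losses (levels at or above the median, 1 a cluster), the 8 largest clusters with their lead region (the smallest deposited adjusted p), regions within 10 kb of a microRNA, the lead region at up to 4 genes of each list, the farthest, widest and highest 3, and the edge of the rule. Other regions given with values (the lower region of the Serp2 cluster, lncRNA promoters) were picked for their position after the values were seen. Not every region that the rule names is printed with its values, and 1 of the 8 largest gains is not reported here. The members and lists were chosen with earlier results of these data known. Animals are separate mice, per the labels, and same-numbered animals are not paired.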

Additional observations from a re-analysis of the deposited data

Results flagged for a closer look

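Among the regions named above, each group of 4 animals was checked for 1 animal far from the other 3, by the gap to its neighbour as a share of the group's range (above Dixon's 95% critical value). Of 154 groups 11 passed, or 7.14%, where chance alone flags about 1 in 20. Control 2, the animal with the fewest reads, was the outlying one in 4 of the 11.

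Control 2 was low at the Id2 region, with 63.5 scaled reads against 91.9 to 94.0 in the other controls (share 0.931). It was high at the Anxa10 region, with 117.6 against 78.3 to 80.5 (0.944), at the Lncpint region at chr6:31206001-31207500, with 30.6 against 20.1 to 21.6 (0.849), and at the region between Slitrk5 and Gpc5, with 91.8 against 25.2 to 31.2 (0.909). Control 1 was high at the S1pr3 region, with 70.2 against 33.6 to 37.8 (0.886), and low at the Adgrl2 region, with 129.3 against 188.8 to 197.6 (0.871). Control 4 was low at the Mir133a-2 region, with 88.1 against 117.9 to 123.0 (0.855), and high at the lead region of the Cebpb cluster (the smallest deposited adjusted p), with 78.0 against 58.7 to 61.2 (0.874). Control 3 was high at the Bmp4 region, with 44.8 against 23.2 to 26.4 (0.851).

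Of the R1A-deleted animals, animal 2 was high at the Mir3970 region, with 55.7 scaled reads against 40.7 to 41.7 (0.934), and animal 3 was low at the Kcna4 region, with 30.3 against 60.4 to 66.7 (0.83).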

How the results depend on the processing

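The number of intergenic regions called higher, 457 on the authors' scale, was 162 with TMM factors and 147 with DESeq2's own size factors, and 332 with total reads, while the number called lower stayed at 344 in these fits. The table lists called regions only, so the scale cannot be taken from unchanged regions; the cause of the difference between scalings was not tested. Regions whose groups did not overlap fell from 723 to 455 with TMM factors. Requiring over 100 kb to a gene left 512 regions, and counting every RefSeq gene type left 200, both by construction. The region between Fam98a and Crim1 (chr17:76673251-76674000) turned to a log2 change of -0.041 with TMM factors and -0.044 with DESeq2's own size factors. That region lost its call with both. Of the other named regions, out of 77 in all, 20 lost their call with TMM factors and 21 with DESeq2's own size factors, each keeping its direction. With total reads 7 of the 77 lost their call. Leaving out each animal in turn gave 457 to 457 higher and 342 to 344 lower. Clusters numbered 79 with a gap of 20 kb and 125 with 100 kb.

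Animal numbers do not pair the animals: deviations of same-numbered animals correlated at 0.262, 0.04, -0.0366 and 0.000154, and only number 1 correlated best with its own. With the replicate block the counts were 457 and 344. Among alternatives chosen after seeing the data, 57.5% of intergenic regions were higher on autosomes alone and 56.3% with 1 region per cluster, against 57.1%. Bins with few reads in control 2 limit the precision of single regions, and unlisted regions were not analysed here.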
